A study of Mus musculus with 9 samples.

Results

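The nuclear genes of oxidative phosphorylation were examined in mouse embryonic fibroblasts (MEFs) that lack β-actin. They were the protein-coding genes whose symbols in GENCODE M21 begin with Nduf, Uqcr, Cox4 to Cox8 or Atp5, together with Sdha, Sdhb, Sdhc, Sdhd and Cyc1. The rule uses names alone, and it picked 94 of the 46603 genes in the deposited tables. Of these, 77 encode subunits of the 5 complexes (36 in complex I, 4 in complex II, 9 in complex III, 12 in complex IV and 16 in complex V). The others are 8 assembly factors of complex I, 8 isoforms of complex IV subunits known from muscle, lung, testis or low oxygen, and Atp5s, a coupling factor-like protein outside the ATP synthase. After a filter on low counts 88 of the 94 were tested, all 77 subunits among them, and the 6 left out were the isoform genes Cox4i2, Cox6b2, Cox7b2, Cox8b, Cox8c and Ndufa4l2.

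The cells were BALB/c fibroblasts from embryos aged 10.5 days, and all 9 libraries carried the β-actin knockout, so no group with intact β-actin enters here. In each group cells stood for 6 h in Opti-MEM with Lipofectamine 2000: the mock group (3 libraries) received the lipid alone, and the others received 10 µg/ml of poly(dA:dT) (3 libraries) or 10 µg/ml of poly(I:C) (3 libraries). Poly(dA:dT) stands for viral DNA and is called the DNA mimic here, and poly(I:C), a double-stranded RNA, is called the RNA mimic. The series was made to find how the transcriptome of these knockout cells changes after viral mimics. The labels do not say whether the libraries of a group came from separate cultures or from more than 1 cell line, so p-values measure the spread between these libraries, which may be technical.

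Depth ran from 16082772 to 29219797 gene counts per library, and a count of 3 corresponded to 0.107 to 0.18 counts per 1000000 counts (CPM). Actb itself was counted at 32.1 to 34.6 CPM in mock, 29.1 to 31.5 CPM with the DNA mimic and 31.5 to 33.9 CPM with the RNA mimic; which part of the gene is deleted is not in the labels, so these counts do not check the genotype. Of 10 fibroblast and mesenchymal markers, 9 had at least 1 CPM in mock, and their summed level was 7531 to 7695 CPM in mock, 7265 to 7387 with the DNA mimic and 6466 to 6768 with the RNA mimic. Of the 9 tested, 7 fell and 1 rose with each mimic. The 8 macrophage markers summed to 4.105 to 4.9 CPM in mock, 2.83 to 3.51 with the DNA mimic and 2.22 to 3.71 with the RNA mimic. Ptprc and Tyrobp were at 0 in every group. Of 3 macrophage markers tested, 1 fell with the DNA mimic and 2 with the RNA mimic (1 under total counts). The 6 endothelial markers summed to 0.789 to 1.11 CPM in mock, 2.74 to 3.25 with the DNA mimic and 4.66 to 4.83 with the RNA mimic, with Tie1 and Emcn at 0 throughout, and Cdh5 at 0 in mock. All 3 endothelial markers tested rose with each mimic. The 6 skeletal muscle markers summed to 13.9 to 17.9 CPM in mock, 15.7 to 16.3 with the DNA mimic and 9.87 to 12.2 with the RNA mimic; Myod1 and Ckm were at 0 throughout, and Myog and Myh3 in mock alone. The 6 cardiac muscle markers summed to 3.79 to 3.95 CPM in mock, 4.06 to 4.44 with the DNA mimic and 2.80 to 4.2 with the RNA mimic, with Nppa and Actn2 at 0 in mock. The 6 neural markers summed to 399 to 409 CPM in mock, 361 to 391 with the DNA mimic and 361 to 369 with the RNA mimic, with Sox2 and Dcx at 0 throughout; of 3 tested, 2 fell with each mimic (1 with each under total counts). The 6 epithelial markers summed to 8.99 to 10.3 CPM in mock, 8.51 to 9.44 with the DNA mimic and 8.96 to 9.31 with the RNA mimic. Of 3 tested, none was called with the DNA mimic, and 2 rose and 1 fell with the RNA mimic. The 1 skeletal and the 1 cardiac muscle marker tested fell with the RNA mimic and were not called with the DNA mimic. Among all tested genes 26.6% rose and 26.2% fell with the DNA mimic, and 39.8% and 36.3% with the RNA mimic. The part of these shifts in the results on respiratory genes was not tested. In bulk RNA, fewer cells of one kind and less RNA per cell cannot be told apart.

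Oxidative phosphorylation passes electrons from NADH through complex I, or from succinate through complex II, to ubiquinone, then through complex III and cytochrome c to complex IV, which reduces oxygen. Complexes I, III and IV pump protons across the inner mitochondrial membrane, and complex V, the ATP synthase, uses that gradient to make ATP. Most subunits are encoded in the nucleus and imported, while a small core of complexes I, III, IV and V is encoded by mitochondrial DNA, and complex II is wholly nuclear. The transcription factors NRF1 and GABPA (also called NRF2) and YY1 are known to bind the promoters of many nuclear respiratory genes.

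RefSeq promoter windows of 300 bases (250 before and 50 after the start) were at hand for 73 of the 94 genes. The stretches shown here are the 190 bases that end just before the RefSeq start (build GRCm38.p6, minus strand in each case, printed 5′ to 3′). They belong to the subunit gene that fell most (Uqcrh, chr4:116075071-116075260), the complex IV subunit that fell most (Cox6b1, chr7:30626115-30626304), an ATP synthase gene with the NRF1 motif (Atp5k, chr5:108434400-108434589) and a complex I gene that changed little (Ndufa10, chr1:92473759-92473948). Atp5k and Ndufa10 were picked after their values were seen. Capitals mark a match to the GABPA motif CCGGAAG (read here on the other strand) or to the NRF1 motif (GCGCA, any base, then GCGC).
Uqcrh: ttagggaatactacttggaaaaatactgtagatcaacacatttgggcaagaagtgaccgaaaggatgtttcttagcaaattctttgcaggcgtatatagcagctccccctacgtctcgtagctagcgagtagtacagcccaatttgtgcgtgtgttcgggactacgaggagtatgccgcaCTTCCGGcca
Cox6b1: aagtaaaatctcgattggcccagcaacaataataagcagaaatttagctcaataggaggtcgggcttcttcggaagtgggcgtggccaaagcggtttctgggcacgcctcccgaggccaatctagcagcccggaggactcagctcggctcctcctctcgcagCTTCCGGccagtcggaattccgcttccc
Atp5k: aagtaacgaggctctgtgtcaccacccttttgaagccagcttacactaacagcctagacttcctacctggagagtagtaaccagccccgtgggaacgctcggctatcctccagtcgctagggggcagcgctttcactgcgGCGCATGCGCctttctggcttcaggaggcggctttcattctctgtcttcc
Ndufa10: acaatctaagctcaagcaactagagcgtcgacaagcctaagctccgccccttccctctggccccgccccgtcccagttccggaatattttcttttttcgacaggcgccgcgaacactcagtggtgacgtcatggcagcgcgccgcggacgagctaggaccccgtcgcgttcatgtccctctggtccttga

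The GABPA match in Uqcrh ended 3 bases before the start and that in Cox6b1 21 bases before it, and the NRF1 match in Atp5k ended 40 bases before it. Searched on both strands of the 300-base windows, the GABPA letters CCGGAAG occurred in 18 of 70 tested members (25.7%) and in 19.9% of 9968 tested genes with a window. The NRF1 letters (GCGCA, any base, GCGC) occurred in 18 of the 70 (25.7%, against 11.4% of all), the YY1 letters AAGATGGC in 10 (14.3%, against 5.27%) and TATAAA in 5 (7.14%, against 8.56%). Ndufa10 held none of these letters in its window. Neither did Ndufb3, Cox7b and Ndufa4, which were at -0.87, -0.87 and -0.84 with the RNA mimic. Ndufs3 held the GABPA letters at 2 places and was at -0.26 there. The printed stretches are examples and do not stand for all members. The members with the GABPA letters had a median log2 fold change of -0.30 with the DNA mimic and -0.57 with the RNA mimic, against -0.23 and -0.47 for the 52 members without them. For the NRF1 letters the medians were -0.24 and -0.51 with them, and -0.24 and -0.49 in the 52 members without. The 10 members with the YY1 letters had medians of -0.26 and -0.52, against -0.24 and -0.49 in the 60 without. For TATAAA they were -0.32 and -0.58 in the 5 members with it, and -0.24 and -0.49 in the 65 without. A match is a run of letters, not a shown binding site, and these medians carry no test.

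After both mimics nearly all nuclear respiratory genes fell by small amounts, and they fell further with the RNA mimic than with the DNA mimic. Summed over the members, their level was 14184 ± 192 CPM (SD, n = 3) in mock, 12071 ± 114 with the DNA mimic and 10044 ± 116 with the RNA mimic. In single libraries this sum was 14340, 14243 and 13970 CPM in mock, 12163, 11943 and 12106 with the DNA mimic, and 10144, 10070 and 9917 with the RNA mimic, so the 3 groups did not overlap. As a share of all gene counts the members went from 1.36% in mock to 1.22% and 1.04%.

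Tests were made with edgeR's quasi-likelihood test, two-sided, with Benjamini-Hochberg adjustment over 14176 genes, and a gene was called at an adjusted p under 0.05. With the DNA mimic 76 of the 88 tested members fell and 1 rose, where 26.2% of all tested genes fell and 26.6% rose. With the RNA mimic 79 of 88 fell and 1 rose, where 36.3% of all tested genes fell and 39.8% rose. Directly compared, 76 of 88 were lower with the RNA mimic than with the DNA mimic and 1 was higher, where 32.1% and 31.3% of all tested genes were. The members' median log2 fold changes were -0.24, -0.49 and -0.25 in these comparisons, against 0.01, 0.04 and 0.00 over all tested genes. Respiratory genes are mostly abundant: among the 9627 tested genes with a mean of at least 10 CPM, 36.7% fell with the DNA mimic and 47.8% with the RNA mimic. Between the mimics 4160 of these 9627 were lower with the RNA mimic. Their medians in the 3 comparisons were -0.025, -0.07 and -0.05. The mimics share the mock libraries, so their changes against mock are not independent of each other. For 71 of the 77 subunits every mock library lay above every DNA mimic library, which in turn lay above every RNA mimic library; the same order held for 20.7% of all tested genes.

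**Figure D1:**
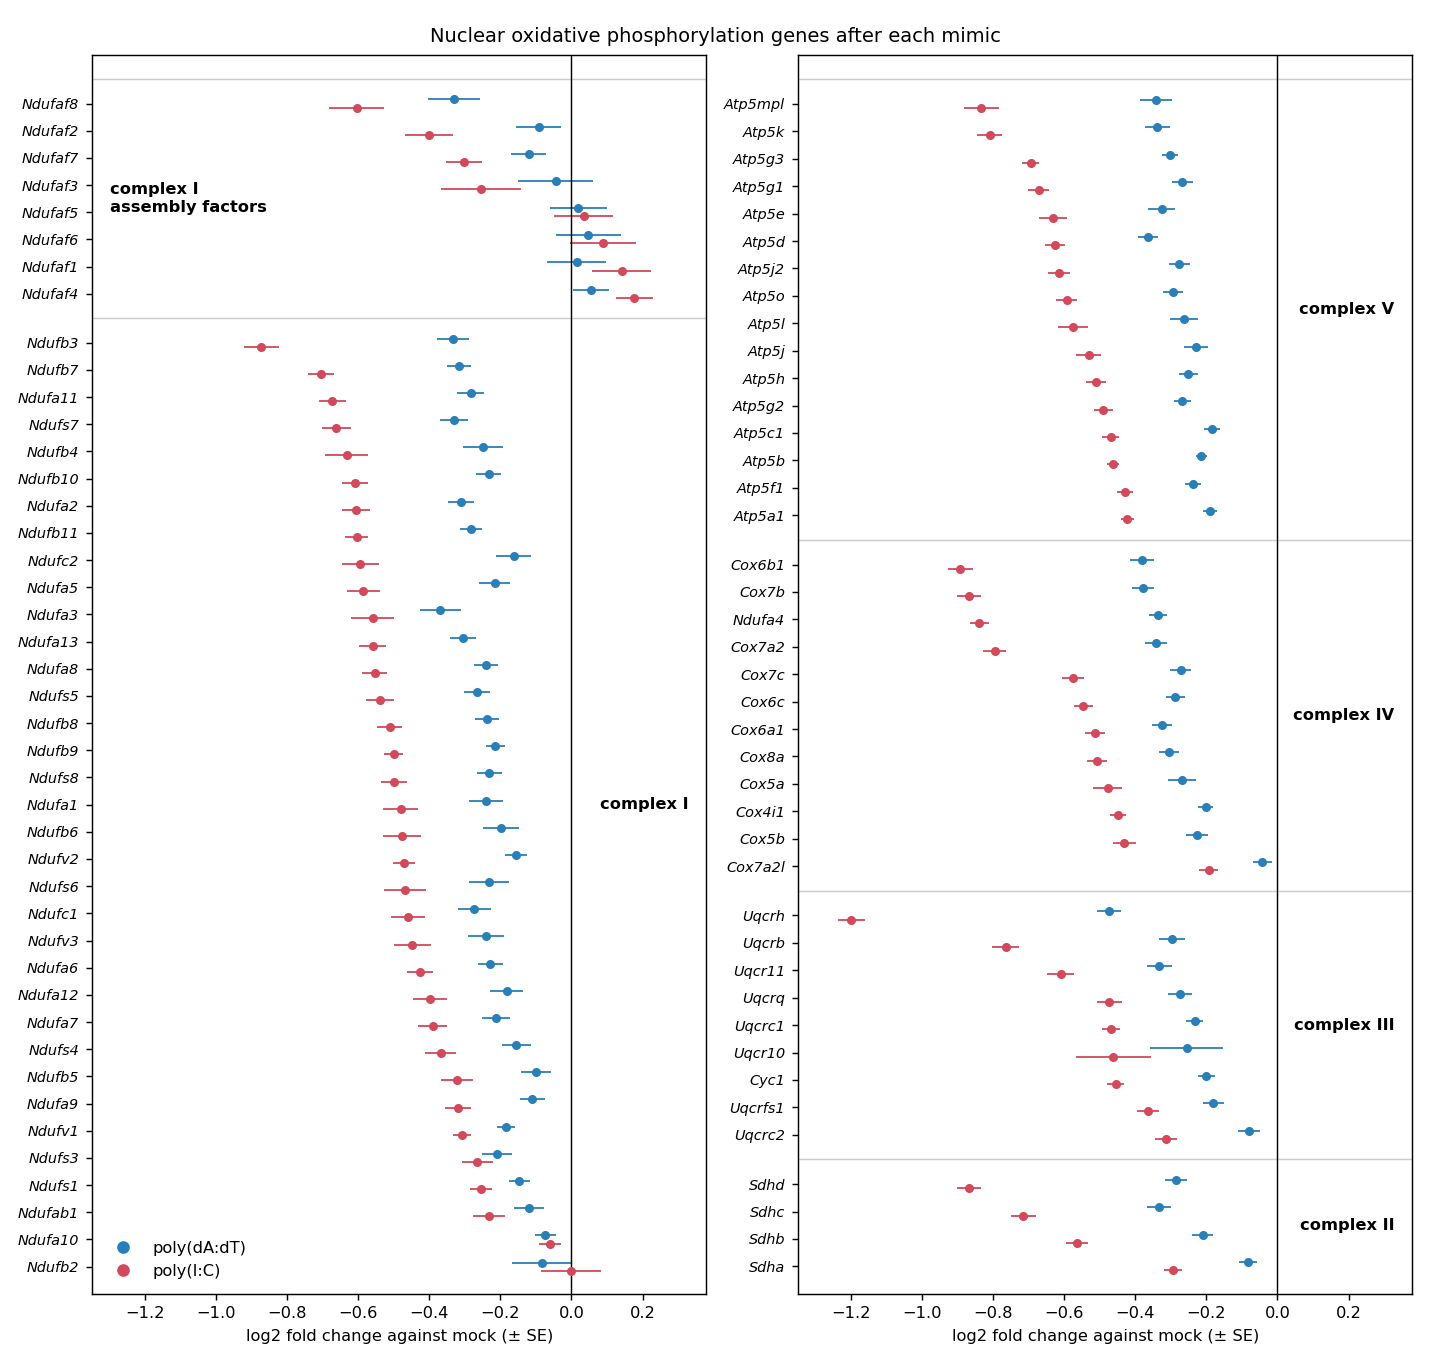
Log2 fold change against mock (horizontal axis, bars ± SE) of 76 of the 77 subunits and 8 complex I assembly factors after poly(dA:dT) (blue, the DNA mimic) and poly(I:C) (red, the RNA mimic), by complex and ordered by the poly(I:C) value. Subunits lie left of 0 in both comparisons, from -0.47 to -0.04 with the DNA mimic and from -1.20 to -0.0011 with the RNA mimic, while several assembly factors lie at or right of 0.

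Complex I takes electrons from NADH. Of its 36 nuclear subunits, 35 fell with the DNA mimic and 34 with the RNA mimic, and none rose. The median log2 fold changes were -0.23 and -0.48. With total counts 29 fell with the DNA mimic. Among all tested genes 26.2% fell with the DNA mimic and 36.3% with the RNA mimic. Of those with at least 10 CPM, 36.7% and 47.8% did. The 7 nuclear core subunits, which hold the flavin and the iron-sulfur clusters, all fell in both comparisons, with medians of -0.18 and -0.32. The 29 accessory subunits had medians of -0.23 and -0.50. Ndufv1, the flavin-bearing subunit that oxidises NADH, was at 230, 228 and 229 CPM in mock, 204, 201 and 200 CPM with the DNA mimic and 180, 189 and 185 CPM with the RNA mimic. Its groups did not overlap, and it fell by 0.18 ± 0.03 and 0.31 ± 0.03 on the log2 scale (SE; adjusted p = 1.3e-10 and 7.77e-23, edgeR). Ndufs1, the largest core subunit, fell by 0.15 and 0.25, though its exons overlap other genes over 498 bases.

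Among the core subunits Ndufs7, which carries the iron-sulfur cluster that hands electrons to ubiquinone, had the lowest fold change. It was at 95.4, 90.9 and 87.2 CPM in mock, 78.2, 69.3 and 70.8 CPM with the DNA mimic and 55.7, 56.4 and 61.7 CPM with the RNA mimic. It fell by 0.33 ± 0.04 and 0.66 ± 0.04 on the log2 scale (adjusted p = 4.11e-13 and 2.35e-31, edgeR). The other core members Ndufs8 and Ndufv2 fell by 0.23 and 0.16 with the DNA mimic and by 0.50 and 0.47 with the RNA mimic. Ndufs3 fell by 0.21 with the DNA mimic and 0.26 with the RNA mimic; it was the core subunit not called between the mimics (log2 difference -0.06 ± 0.04, adjusted p = 0.269, edgeR), and it has a processed pseudogene, Gm12251, 98.6% identical over 792 bases.

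The accessory subunits spread more widely. Ndufb3, a small subunit of the membrane arm, was at 59.3, 61.6 and 56.2 CPM in mock, 46.1, 48.0 and 46.6 CPM with the DNA mimic and 31.7, 30.8 and 34.9 CPM with the RNA mimic. It fell by 0.33 ± 0.05 and then 0.87 ± 0.05 on the log2 scale (adjusted p = 7.54e-11 and 3.03e-38, edgeR), and the direct difference between the mimics was -0.54 ± 0.05. With the DNA mimic the accessory subunit with the lowest fold change was Ndufa3, from 34.4 ± 1.61 to 26.6 ± 1.03 CPM (SD, n = 3), a log2 fold change of -0.37 ± 0.06. At the other end were Ndufa10 and Ndufb2, named here after their values were seen. Ndufa10 was at 143, 142 and 142 CPM in mock, 136, 137 and 132 CPM with the DNA mimic and 135, 134 and 140 CPM with the RNA mimic. The mimic libraries lay just below mock and overlapped each other: Ndufa10 fell by 0.07 ± 0.03 with the DNA mimic (adjusted p = 0.0253, edgeR) and its value of -0.06 ± 0.03 with the RNA mimic did not pass (adjusted p = 0.057, edgeR). These calls turned on the setting: with the DNA mimic Ndufa10 was called lower in 12 of 17 alternatives, and with the RNA mimic in 9 of 17. With DESeq2 size factors it was at -0.09 and -0.08 and called lower in both (adjusted p = 0.0048 and 0.0146, edgeR), and with total counts at -0.0001 and 0.054 and called in neither. Ndufb2 lay between 12.5 and 14.8 CPM in all libraries, with overlapping groups; its log2 fold changes of -0.08 and -0.0011 were not called, and the second was 0.11 with total counts. Its exons overlap those of Braf and 2 other genes over 447 bases, and the library kit does not mark strand, so its reads and theirs cannot be fully separated.

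The 8 assembly factors of complex I help build the complex but are not part of it. Their log2 fold changes ran from -0.33 to 0.055 with the DNA mimic and from -0.61 to 0.18 with the RNA mimic. With the DNA mimic 2 of 8 fell and none rose, where 26.2% of all tested genes fell and 26.6% rose. With the RNA mimic 4 fell and 1 rose, where 36.3% of all tested genes fell and 39.8% rose. With total counts 1 fell and 1 rose, then 3 fell and 3 rose. With so few genes nothing particular to these 8 is read from the counts. Ndufaf4, an early assembly factor, was the gene that rose with the RNA mimic. It was at 36.6, 35.3 and 33.4 CPM in mock, 37.9, 36.1 and 35.9 CPM with the DNA mimic and 40.0, 39.7 and 39.7 CPM with the RNA mimic. The RNA mimic libraries were above all others, with a log2 fold change of 0.18 ± 0.05 against mock (adjusted p = 0.00142, edgeR) and a difference of 0.12 ± 0.05 against the DNA mimic (adjusted p = 0.0347, edgeR). The call against mock held in all 17 alternatives run, whereas the call between the mimics was lost in 7 of 17: with no filter, with DESeq2 and without poly(dA:dT) 2, poly(dA:dT) 3, poly(I:C) 1, poly(I:C) 2 or poly(I:C) 3. Ndufaf8 fell in both comparisons, from 21.5 ± 2.37 CPM to 17.2 ± 0.218 and 14.3 ± 1.03 CPM (SD, n = 3), by 0.33 and 0.61 on the log2 scale.

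Complex II, succinate dehydrogenase, also serves the citric acid cycle. All 4 subunits fell in both comparisons, with median log2 fold changes of -0.25 and -0.64, except that with total counts 3 of 4 fell with the DNA mimic. Among all tested genes 26.2% fell with the DNA mimic and 36.3% with the RNA mimic. Sdha, the flavoprotein, was at 244, 246 and 244 CPM in mock, 229, 237 and 226 CPM with the DNA mimic and 203, 198 and 198 CPM with the RNA mimic, a fall of 0.08 ± 0.02 and 0.29 ± 0.03 on the log2 scale (adjusted p = 0.00267 and 5.43e-22, edgeR). Its call with the DNA mimic was lost with total counts (-0.0085, adjusted p = 0.799, edgeR). Sdhb, the iron-sulfur subunit, fell by 0.21 and 0.57.

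Sdhc and Sdhd anchor the enzyme in the membrane and bind ubiquinone. Sdhd was at 140, 132 and 140 CPM in mock, 113, 112 and 113 CPM with the DNA mimic and 75.3, 76.4 and 73.7 CPM with the RNA mimic. It fell by 0.29 ± 0.03 and 0.87 ± 0.03 (adjusted p = 3.39e-15 and 1.37e-56, edgeR), and was 0.58 ± 0.03 lower with the RNA mimic than with the DNA mimic. Sdhc fell by 0.33 and 0.72. By the RNA mimic's fold changes the order was Sdha, Sdhb, Sdhc and Sdhd, from the smallest fall to the largest, and each step exceeded the SE of either gene; differences between genes were not tested.

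Complex III passes electrons from ubiquinol to cytochrome c. With the DNA mimic 8 of its 9 nuclear subunits fell, where 26.2% of all tested genes did. With the RNA mimic all 9 fell, where 36.3% of all tested genes did. The medians of the 9 were -0.26 and -0.47. Complex III held the subunit gene with the lowest fold change of all members with the RNA mimic, Uqcrh, the acidic hinge protein that helps dock cytochrome c. Uqcrh was at 147, 147 and 147 CPM in mock, 102, 102 and 113 CPM with the DNA mimic and 68.7, 64.0 and 58.4 CPM with the RNA mimic. Every library of one group was clear of the next, and Uqcrh fell by 0.47 ± 0.03 and 1.20 ± 0.04 on the log2 scale (adjusted p = 4.27e-24 and 2.99e-54, edgeR). The drop between the mimics, -0.73 ± 0.04, was also the lowest among the members.

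Every other nuclear subunit of complex III had fold changes nearer to 0 than Uqcrh, the redox-active Cyc1 and Uqcrfs1 among them. Uqcrc2, counted here as accessory, was nearer to 0 than both, at -0.08 and -0.31. Differences between genes were not tested. Cyc1, cytochrome c1, was at 392, 379 and 363 CPM in mock, 331, 320 and 338 CPM with the DNA mimic and 277, 269 and 283 CPM with the RNA mimic, a fall of 0.20 ± 0.02 and 0.46 ± 0.02 on the log2 scale (adjusted p = 2.47e-13 and 5.36e-38, edgeR). Uqcrfs1, the Rieske iron-sulfur protein, fell by 0.18 and 0.36. Uqcr10, a small subunit named here because it was the one not called with the DNA mimic, varied within groups: it was at 86.6, 73.8 and 85.4 CPM in mock and 66.2, 71.5 and 67.9 CPM with the DNA mimic, a log2 fold change of -0.26 ± 0.10 (adjusted p = 0.0786, edgeR). It was called lower there in 6 of 17 alternatives: with no filter, with DESeq2, with the 2 groups alone and without mock 2, poly(I:C) 1 or poly(I:C) 3. Cycs, the mobile cytochrome c that is not a member, fell by 0.16 and 0.34.

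**Figure D2:**
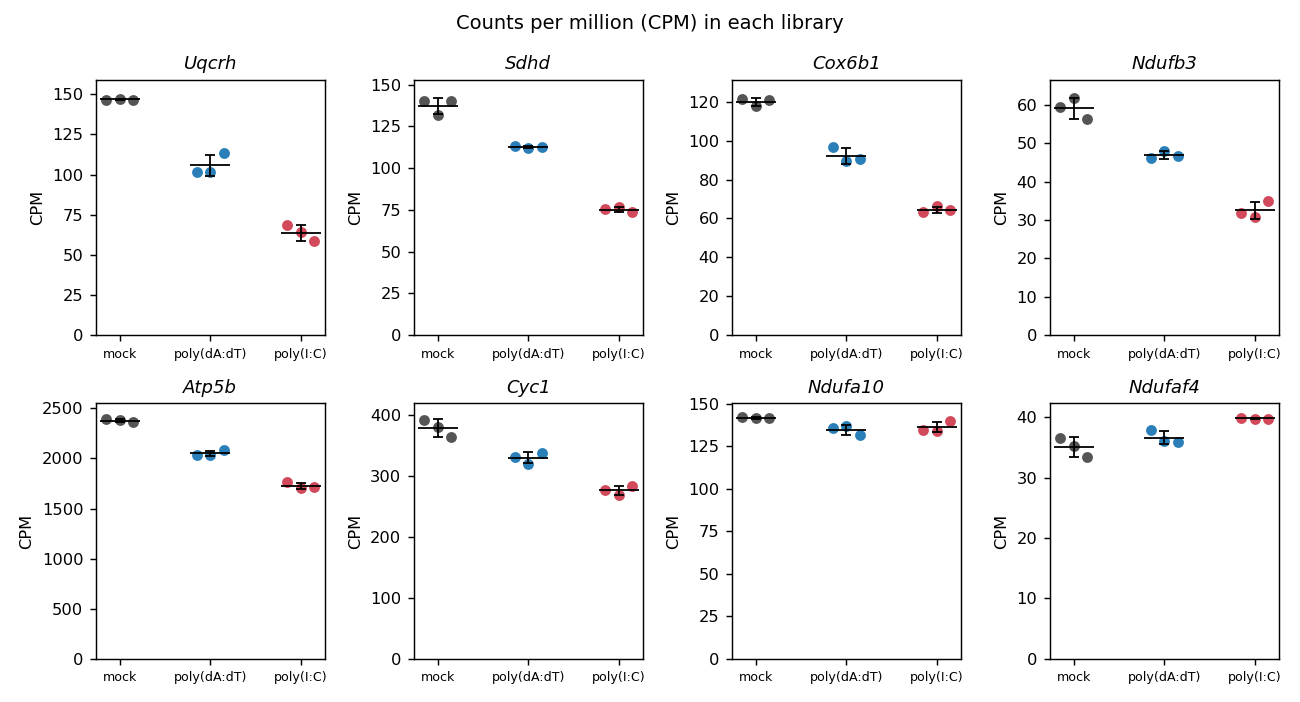
CPM in each library for 8 members: points are libraries, horizontal lines group means and bars ± SD (n = 3), with each axis starting at 0. Uqcrh, Sdhd, Cox6b1, Ndufb3, Atp5b and Cyc1 step down from mock through poly(dA:dT) to poly(I:C) without overlap, Ndufa10 stays between 132 and 143 CPM, and Ndufaf4 is highest in the poly(I:C) libraries.

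Complex IV, cytochrome c oxidase, has its catalytic core encoded by mitochondrial DNA, and its nuclear subunits surround that core. Of 12 ubiquitous nuclear subunits 11 fell with the DNA mimic and all 12 with the RNA mimic (medians -0.30 and -0.53). The shares of all tested genes that fell were 26.2% and 36.3%. Cox6b1, which faces the intermembrane space, was at 121, 118 and 121 CPM in mock, 96.8, 89.5 and 90.5 CPM with the DNA mimic and 63.1, 66.2 and 64.5 CPM with the RNA mimic. It fell by 0.38 ± 0.03 and 0.89 ± 0.04 on the log2 scale (adjusted p = 8.58e-21 and 1.88e-54, edgeR). Cox7b, Ndufa4 and Cox7a2 followed it with the RNA mimic, at -0.87, -0.84 and -0.80; Ndufa4 was first assigned to complex I and is now known as a subunit of complex IV. Cox4i1, the subunit that senses adenine nucleotides, fell by 0.20 and 0.45, Cox6a1 by 0.33 and 0.51 and Cox8a by 0.30 and 0.51.

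Cox7a2l, described as a link between complexes III and IV in supercomplexes, was the member of this complex that changed least. Whether it has that role in these BALB/c cells was not tested. Cox7a2l was at 179, 177 and 177 CPM in mock, 168, 175 and 174 CPM with the DNA mimic and 157, 155 and 155 CPM with the RNA mimic. Its value with the DNA mimic, -0.04 ± 0.03, did not pass (adjusted p = 0.188, edgeR) and turned to 0.032 when libraries were scaled by total counts. With the RNA mimic it fell by 0.19 ± 0.03. A processed pseudogene, Gm6969, matches it over 201 bases.

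The isoforms known from other tissues were low in these fibroblasts. Cox4i2, Cox6b2, Cox8b and Cox8c had between 0 and 4 counts summed over the 3 libraries of any group, Cox7b2 10 to 18 and Ndufa4l2 11 to 27, beside 18811 to 30151 for Cox4i1. Of the 2 tested, Cox7a1, the heart and muscle isoform, lay between 0.171 and 0.632 CPM and was called in no comparison. Cox6a2, the other heart and muscle isoform, was at 1.07, 1.08 and 1.21 CPM in mock, 2.11, 1.97 and 1.22 CPM with the DNA mimic and 1.46, 1.68 and 1.44 CPM with the RNA mimic. It rose with the DNA mimic by 0.65 ± 0.26 on the log2 scale (adjusted p = 0.0237, edgeR), the 1 member called higher there with its library 3 at the level of mock, and its value of 0.46 ± 0.27 with the RNA mimic did not pass. That call was lost without mock 1, mock 2, poly(dA:dT) 1 or poly(dA:dT) 2, and with DESeq2. With the DNA mimic the cardiac muscle markers summed to 4.06 to 4.44 CPM, against 3.79 to 3.95 in mock. The skeletal muscle markers overlapped mock (15.7 to 16.3 against 13.9 to 17.9 CPM). Only 1 marker of each list passed the filter, and neither was called with the DNA mimic. The part of muscle markers in the Cox6a2 value was not tested. Cox6a2 overlaps the antisense gene Itgad over 70 bases.

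Complex V makes ATP from ADP. All 16 of its subunits fell in both comparisons, with medians of -0.27 and -0.58, where 26.2% and 36.3% of all tested genes fell. The 5 genes of the catalytic F1 head had medians of -0.21 and -0.47, and the 11 genes of the membrane sector, stalk and associated proteins -0.27 and -0.59. Atp5b, the catalytic beta subunit and the most highly counted member, was at 2389, 2384 and 2362 CPM in mock, 2033, 2036 and 2083 CPM with the DNA mimic and 1762, 1701 and 1716 CPM with the RNA mimic. It fell by 0.21 ± 0.02 and 0.46 ± 0.02 on the log2 scale (adjusted p = 1.74e-25 and 1.54e-61, edgeR). Atp5a1, the alpha subunit, fell by 0.19 and 0.42, and Atp5c1, the rotating gamma subunit, by 0.18 and 0.47. The small F1 subunits had lower fold changes: Atp5d (delta) by 0.36 and 0.63, and Atp5e (epsilon) by 0.33 and 0.63.

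In the membrane sector Atp5mpl, a small proteolipid-like subunit, had the lowest fold change with the RNA mimic. It was at 58.2, 57.9 and 55.4 CPM in mock, 44.4, 45.1 and 46.0 CPM with the DNA mimic and 32.4, 32.1 and 31.8 CPM with the RNA mimic, a fall of 0.34 ± 0.05 and 0.83 ± 0.05 on the log2 scale (adjusted p = 2.49e-11 and 1.15e-36, edgeR). The genes Atp5g1, Atp5g2 and Atp5g3 encode the same mature c subunit of the rotor ring with different import sequences. They fell by 0.27, 0.27 and 0.30 with the DNA mimic and by 0.67, 0.49 and 0.69 with the RNA mimic; the differences between these genes were not tested. Atp5g1 has a processed pseudogene, Gm10039, 99.8% identical over 411 bases. Atpif1, the inhibitor of the ATP synthase and no member, fell by 0.18 and 0.51; with total counts the first was -0.10 and not called (adjusted p = 0.0519, edgeR). Atp5s lay between 4.22 and 5.58 CPM in all libraries and was called in no comparison.

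Of the 94 members, 41 either overlap exons of another gene or share at least 100 bases at 97% identity or more with one. Among subunits without such a partner, 39 of 40 fell with the DNA mimic and 39 of 40 with the RNA mimic, with medians of -0.24 and -0.53. Among those with one, 35 and 36 of 37 fell, with medians of -0.25 and -0.49. Over all tested genes 26.2% fell with the DNA mimic and 36.3% with the RNA mimic.

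With the RNA mimic most measured subunits encoded by mitochondrial DNA rose, where the nuclear ones fell. Summed, the 13 mitochondrially encoded subunits were at 3112 ± 20.1 CPM (SD, n = 3) in mock, 2397 ± 15.3 with the DNA mimic and 3905 ± 83.4 with the RNA mimic, where the nuclear subunits went from 14002 ± 190 to 11896 ± 114 and 9878 ± 112 CPM. Of 10 tested, 8 fell with the DNA mimic (median log2 fold change -0.36; 26.2% of all tested genes fell) and none rose, but with the RNA mimic 8 rose and 1 fell (median 0.36; 39.8% of all tested genes rose), and between the mimics 8 were higher with the RNA mimic (median 0.705). mt-Cytb, the mitochondrially encoded core of complex III, was at 389, 397 and 392 CPM in mock, 305, 302 and 313 CPM with the DNA mimic and 590, 597 and 573 CPM with the RNA mimic. It fell by 0.36 ± 0.02 with the DNA mimic and rose by 0.58 ± 0.02 with the RNA mimic (adjusted p = 9.25e-34 and 3.06e-60, edgeR), while its nuclear partners Cyc1 and Uqcrfs1 fell in both. mt-Co1, a catalytic subunit of complex IV, was at 677 ± 4.71 CPM in mock, 544 ± 5.58 with the DNA mimic and 939 ± 26.4 with the RNA mimic, and mt-Nd4 of complex I at 106 ± 2.80, 80.0 ± 1.44 and 147 ± 6.45 CPM. The 1 that fell with the RNA mimic was mt-Nd3, at 0.824 to 1.74 CPM over all libraries, and its call was lost with total counts, with DESeq2 and without mock 3 or poly(I:C) 1. mt-Nd3, mt-Nd4l, mt-Co2, mt-Co3 and mt-Atp6 were all counted under 2 CPM, and each has a copy in the annotated gene set that is at least 99.7% identical (Gm28438 for mt-Nd3), so their levels are uncertain. Copies also match mt-Co1 (Gm13340, 97.6% identical over 1545 bases) and mt-Nd4 (Gm28439, 100% over 876 bases), and none of this kind was found for mt-Cytb. With total counts as the scaling 7 fell with the DNA mimic, and with the RNA mimic 8 rose and 0 fell.

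**Figure D3:**
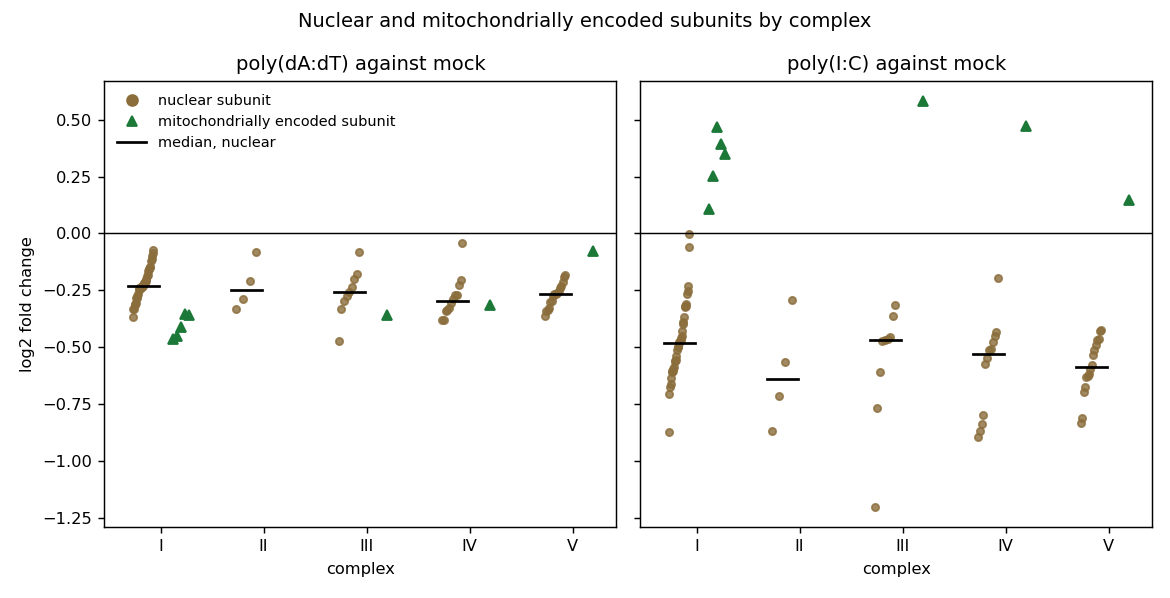
Log2 fold change against mock by complex, for nuclear subunits (brown points, black line the median) and mitochondrially encoded subunits with at least 10 CPM (green triangles), for poly(dA:dT), the DNA mimic, on the left and poly(I:C), the RNA mimic, on the right. Both kinds lie below 0 with the DNA mimic, whereas with the RNA mimic the mitochondrially encoded subunits lie above 0 and the nuclear ones at or below it.

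Genes that serve the same complexes without matching the naming rule moved in both directions. The shares over all tested genes were 26.6% higher and 26.2% lower with the DNA mimic, and 39.8% and 36.3% with the RNA mimic. No difference from these shares was tested. Of 39 tested assembly factors outside the rule, 11 rose and 7 fell with the DNA mimic, and 12 rose and 17 fell with the RNA mimic (medians -0.01 and -0.06); with total counts it was 12 and 5, then 16 and 11, so with the RNA mimic the balance of rises and falls turned with the scaling. Cox17, a copper chaperone for complex IV, was at 3.47, 3.28 and 4.05 CPM in mock, 4.17, 3.47 and 4.09 CPM with the DNA mimic and 10.96, 10.6 and 10.1 CPM with the RNA mimic, where it rose by 1.57 ± 0.12 on the log2 scale (adjusted p = 6.93e-25, edgeR). Cox18, which inserts a mitochondrially encoded subunit of complex IV into the membrane, rose by 0.17 and 0.91 (the first not called with DESeq2 or without mock 3), and Cox20, a chaperone of the same subunit, rose by 2.25 with the RNA mimic from a low 0.177 CPM to 0.837 CPM. Sdhaf4, an assembly factor of complex II, fell by 0.35 and 0.98, where the 4 complex II subunits fell by 0.08 to 0.33 and by 0.29 to 0.87.

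Of 16 tested regulators of nuclear respiratory genes, 7 rose and 3 fell with the DNA mimic, and 10 rose and 2 fell with the RNA mimic (medians 0.11 and 0.24); with total counts 10 rose and 1 fell, then 12 rose and 2 fell. Among all tested genes 26.6% rose and 26.2% fell with the DNA mimic, and 39.8% and 36.3% with the RNA mimic. Ppargc1a, which encodes the coactivator PGC-1α, was at 2.69, 3.45 and 3.32 CPM in mock, 3.83, 4.28 and 3.87 CPM with the DNA mimic and 9.12, 8.62 and 10.4 CPM with the RNA mimic. It rose by 0.36 ± 0.15 and 1.58 ± 0.13 on the log2 scale (adjusted p = 0.0377 and 4.23e-23, edgeR), against the direction of the subunits. The call with the DNA mimic was lost with no filter, with DESeq2 and without mock 1, poly(dA:dT) 2 or poly(dA:dT) 3. Its relative Ppargc1b rose by 1.36 with the RNA mimic, Perm1, a muscle regulator of the same programme, by 0.85 and 1.72 from 0.576 CPM, and Myc by 0.28 and 1.15; the Perm1 call with the DNA mimic was lost with DESeq2 and without mock 2 or poly(dA:dT) 1, where it was at 0.54. Gabpa and Yy1, named after their values were seen, were the 2 regulators called lower with the RNA mimic, and Nrf1 was not among them. Gabpa fell by 0.23 and 0.43, and Yy1 by 0.15 and 0.32. Yy1 with the DNA mimic was not called with total counts (-0.07, adjusted p = 0.09, edgeR). Gabpa overlaps the member Atp5j over 397 bases.

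Of 11 genes for transcription and replication of mitochondrial DNA, 5 rose and 1 fell with the DNA mimic, and 6 rose and 3 fell with the RNA mimic; with total counts 8 rose and 0 fell, then 8 rose and 1 fell. These counts stand beside the same shares of all tested genes (26.6% higher and 26.2% lower, then 39.8% and 36.3%), and with so few genes nothing particular to the list is read from them. Polg2, the accessory subunit of the mitochondrial DNA polymerase, rose by 0.53 and 1.00, and Tefm, the elongation factor of mitochondrial transcription, by 0.45 and 0.61. Mterf1a and Tfb1m rose with the RNA mimic by 0.84 and 0.61.

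The short genes among the subunits had the lower fold changes. Across the 77 subunits the longest annotated coding length and the log2 fold change had a Spearman rho of 0.613 with the DNA mimic and 0.521 with the RNA mimic, a description across genes that share the same libraries. The relation was also present over 9481 protein-coding genes with at least 10 CPM, with rho of 0.311 and 0.304. In the 24 subunits with a coding length above 300 and up to 450 bases the median was -0.26 with the DNA mimic and -0.54 with the RNA mimic, against -0.19 and -0.40 in 385 other genes of that length. In the 8 subunits above 900 and up to 1500 bases it was -0.17 and -0.32, against -0.03 and -0.09 in 2583 other genes. The bins other than 300 to 450 bases hold 19 subunits or fewer. Mean CPM had a rho of 0.0635 and 0.093 with the log2 fold change among subunits, and of -0.283 and -0.249 over the 9481 genes. The part of transcript length in the fall of the subunits was not tested.

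**Figure D4:**
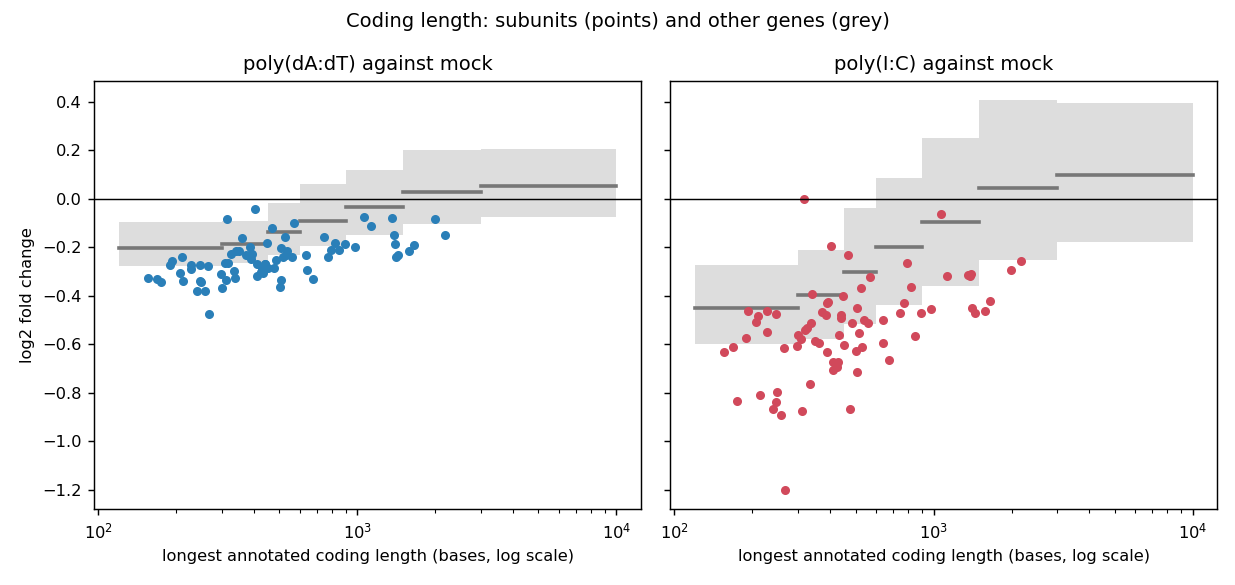
Coding length (horizontal axis, bases, log scale) against log2 fold change for the 77 subunits (points), with the median (grey line) and quartiles (grey band) of other protein-coding genes of at least 10 CPM in each length bin, for poly(dA:dT), the DNA mimic, on the left and poly(I:C), the RNA mimic, on the right. Other genes of short coding length also lie below 0, and the subunit medians of -0.26 and -0.54 at 300 to 450 bases lie under their medians of -0.19 and -0.40.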

How the data were processed

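RNA was sequenced from 9 libraries of β-actin knockout fibroblasts (mock, poly(dA:dT) and poly(I:C), 3 each), prepared with a TruSeq RNA kit v2 per the labels' protocols. The deposited tables hold raw gene counts made by the authors; TopHat2 2.1.0, HTSeq, DESeq2 and build GRCm38.p4 are named in the submitters' processing notes, while the annotation release and strand setting of the counting are stated in no source used here. GENCODE M21 gave symbols to 46091 of 46603 identifiers; the 512 others held 0.0588% of counts and stayed in. Counts were scaled by TMM, filtered with filterByExpr and fitted with edgeR 4.0.16 (R 4.3.3; robust quasi-likelihood, prior count 0.125) over all 9 libraries, with Benjamini-Hochberg adjustment over 14176 genes and a threshold of 0.05. Each SE was taken as the absolute log2 fold change over the root of F. The fit was tested on simulated data. The values of 1 subunit gene are not reported here; it stays in the counts and medians. The members and lists were chosen with earlier results of these data known. Named genes were the extremes of each complex and role, members called higher, core and F1 subunits, isoform sets, up to 4 called genes per list and the largest differences between the mimics; the text names others as such. Copies were sought with BLAST among GENCODE M21 transcripts. Alternatives were DESeq2, other scalings and filters, the 2 groups compared alone, a replicate block and leaving out each library.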

Additional observations from a re-analysis of the deposited data

How the results depend on the processing

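Over the alternatives run, the members called lower numbered 67 to 77 with the DNA mimic, 78 to 80 with the RNA mimic and 74 to 77 between the mimics. The members' median with the DNA mimic, -0.24, was -0.26 with DESeq2 size factors, -0.22 with upper-quartile factors, -0.16 with total counts and -0.26 with DESeq2. The median with the RNA mimic, -0.49, was -0.45 with upper-quartile factors, -0.37 with total counts and -0.45 with a stricter filter (50 counts or more in 3 libraries). The median between the mimics, -0.25, was -0.21 with total counts, -0.28 with no filter and -0.22 with the filter of 50 counts. Total counts moved the median of all genes by 0.07 and 0.11 with the DNA mimic and the RNA mimic, and the share of higher among all calls with the DNA mimic from 50.3% to 67.7%; 67 members were then lower and 2 higher (Cox6a2 and Ndufaf4) with the DNA mimic, and 78 lower and 4 higher (Cox6a2, Ndufaf1, Ndufaf4 and Ndufaf6) with the RNA mimic. The count of members higher with the DNA mimic, 1, was 0 with the filter of 50 counts and with DESeq2, and 0 to 1 on leaving out each library (0 without mock 1, mock 2, poly(dA:dT) 1 or poly(dA:dT) 2). With the RNA mimic it was 2 with no filter (Ndufa4l2 and Ndufaf4), 2 with the filter of 50 counts (Ndufaf1 and Ndufaf4) and 1 to 2 on leaving out each library. The second gene was Ndufa4l2 without mock 1, poly(I:C) 1 or any 1 of the poly(dA:dT) libraries. Between the mimics the count was 0 with no filter and with DESeq2, and 0 to 1 on leaving out each library. Cox7a2l with the DNA mimic turned to 0.032 with total counts. On leaving out each library, Ppargc1b with the DNA mimic ran from -0.19 to 0.0072 (without mock 1), and Cox7a1 between the mimics from -0.069 (without poly(dA:dT) 2) to 0.48; the cause was not tested. With the replicate number as a block, 75, 79 and 76 members were lower and 1 was higher in each comparison. Correlations of same-numbered libraries ran from -0.0331 to 0.0317, and those of libraries with different numbers from -0.0282 to 0.0224. These values show no sign of pairing by number, but with 3 libraries a group they cannot show that the samples were unpaired. Counting error limits the isoform genes near 3 counts.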

Other observations

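Several nuclear respiratory genes start head to head with another gene. Of the members, 28 had a tested gene on the other strand whose start lay within 500 bases. Of those neighbours, 7 rose, 5 fell and 16 were not called with the DNA mimic, and 12 rose, 12 fell and 4 were not called with the RNA mimic. Over all tested genes 26.6% rose and 26.2% fell with the DNA mimic, and 39.8% and 36.3% with the RNA mimic. No difference of the neighbours from these shares was tested. The neighbours' median log2 fold changes were 0.01 and 0.05, beside -0.24 and -0.47 for the 28 members. Lrrc41, which starts 198 bases from Uqcrh, had log2 fold changes of 0.05 and 0.08, where Uqcrh had -0.47 and -1.20. Phf14, 312 bases from Ndufa4, had 0.03 and 0.21, where Ndufa4 had -0.34 and -0.84. Timm8b, which encodes a chaperone of mitochondrial protein import and starts 98 bases from Sdhd, had -0.25 and -0.58 beside -0.29 and -0.87 for Sdhd. These 3 pairs were named after their values were seen, reads of overlapping exons cannot be told apart without strand, and no test of a difference between partners was made.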
